A study of Glycine max with 8 samples.

Results

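The regions described here are the places within 1 Mb of a chromosome end enriched with an antibody to the product of GLYMA.08G357600 in chromatin immunoprecipitation and sequencing (ChIP-seq) of soybean embryos. In ChIP-seq an antibody collects crosslinked chromatin fragments that carry a protein, and places with more fragments than the surrounding background are called as peaks. The tissue was embryos of Glycine max cultivar Williams 82, dissected at the mid-maturation stage. An anti-peptide antibody against the protein was used, and input chromatin, set aside with no antibody, was the control. The labels gave 8 libraries, 4 ChIP and 4 input, from 2 biological replicates. Each replicate has 2 numbered ChIP libraries and 2 numbered input libraries, taken here as sequencing lanes. The authors deposited 1 peak list per ChIP replicate, with 21078 replicate 1 peaks and 18292 replicate 2 peaks on the 20 chromosomes. Input could enter only through the local background of called peaks, so no input level is given. The sources used here do not say how input was used in peak calling. The labels do not say whether the replicates came from separate plants or pools of embryos, so differences between the lists may be technical.

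A shared region joined replicate 1 and replicate 2 peaks with 1 bp or more in common. It was a member if its midpoint lay in the first or last 1 Mb of a chromosome. The start of a chromosome was position 1, and its last position was the highest peak end in either list. By this rule 1211 of the 15792 shared regions on the chromosomes were members. A further 1428 regions lay in the next 1 Mb inward, and 13153 further inward. Every region is thus called in both lists by definition. Among the shared regions members were chosen by position only, with no use of fold or width.

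Chromosome ends carry telomeric repeats at their tips, followed by subtelomeric sequence. In soybean the chromosome arms are rich in genes, and repeat-rich, gene-poor chromatin surrounds the centromeres. Mid-maturation is the phase in which the embryo fills its cells with storage protein and oil. Coordinates are those of the deposited lists, counted from 1. The sources used here do not name the genome build, so no gene, motif or sequence is reported.

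Each peak has a fold enrichment at its summit, that is, fragments plus 1 over the local background plus 1. It is a value of the authors' peak caller, and tests between windows were made within each list. Folds of the lists are set side by side without a test, since the lists differ in depth. The summit pileup is the number of overlapping fragments, recovered from the deposited fold and p-value. Genome-wide backgrounds, taken as the lowest local background of any peak in a list, were 3.91 and 2.74 fragments. The narrowest peak of each list, 223 and 221 bp, was taken as its fragment length. Divided by these lengths, the backgrounds put replicate 1 at about 1.41 times the ChIP depth of replicate 2. Total read numbers are not used here.

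The outermost 1 Mb windows were well populated at nearly every end. The 40 windows held a mean of 30.3 ± 9.64 regions (SD, n = 40 ends), with a median of 29.5 and a range from 6 to 50. That is 30.3 regions per Mb, against 35.7 in the next 1 Mb and 15.2 further inward. The members made up 7.67% of the chromosomal regions on 4.22% of the length. Their share of regions was above their share of length on 19 of the 20 chromosomes. Chromosome 14 had the highest ratio of these shares, 2.79, with 78 members among 685 regions. Chromosome 13 had the lowest, 0.730, with 37 members among 1163 regions.

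**Figure D1:**
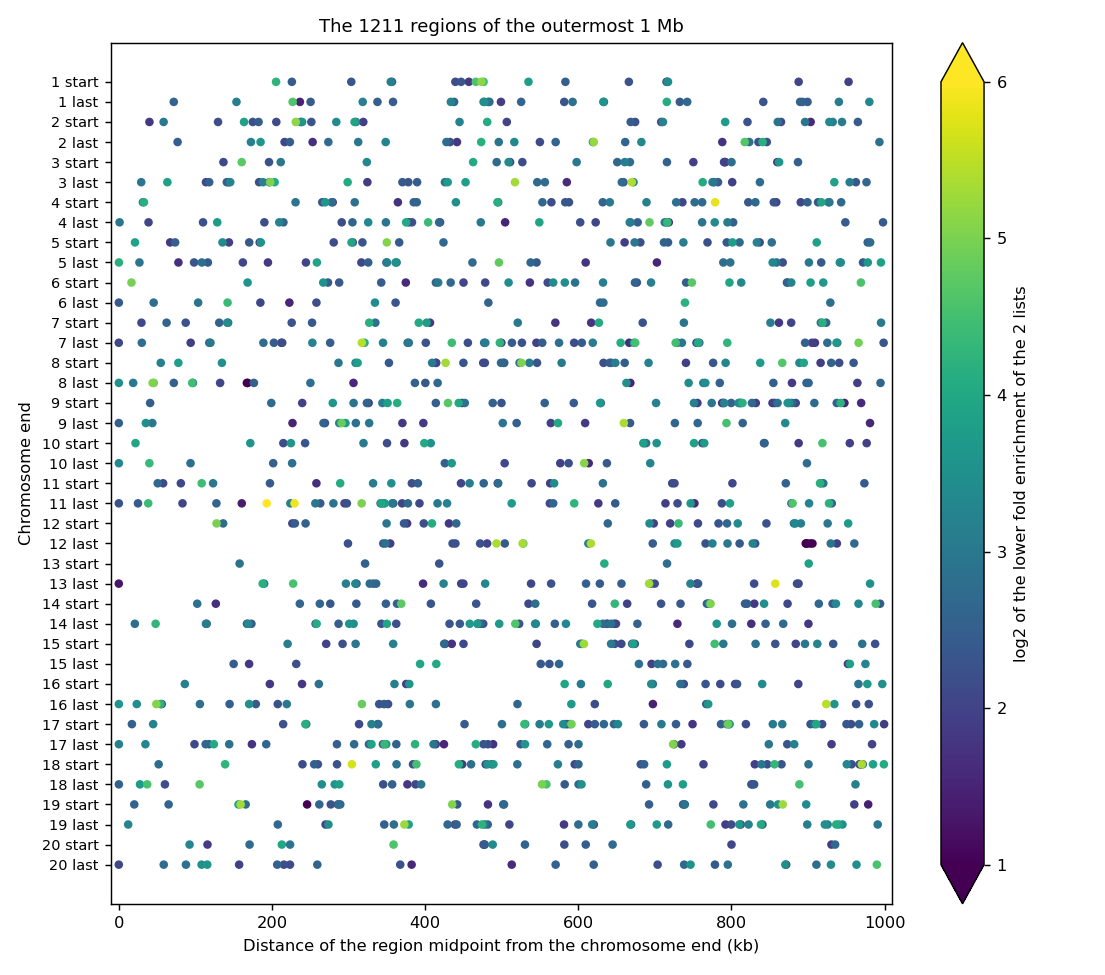
Each point is 1 member, placed by the distance of its midpoint from the chromosome end in kb, with 1 row per end. Color gives the log2 of the lower of its fold enrichments in the replicate lists; members lie along the whole megabase at most ends, and the start of chromosome 13 holds 6.

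The ends differed from each other by more than counting error. The variance of the 40 counts was 3.07 times their mean, where independent counts around 1 common mean would give about 1. The exact Poisson 95% interval lay wholly above the mean at 5 ends and wholly below it at 6. These intervals cover counting error only, and regions in the same window are not independent of each other.

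The highest count was at the last end of chromosome 7, with 50 regions (interval 37.1 to 65.9). The start of chromosome 9 followed with 47 and the start of chromosome 17 with 46. The last end of chromosome 14 held 45 and that of chromosome 11 held 43. These 5 are the ends whose intervals lay above the mean, and neighbours in this order did not differ beyond their intervals.

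The lowest count was at the start of chromosome 13, with 6 regions (interval 2.202 to 13.1). Next came the last ends of chromosome 6 with 14, chromosome 10 with 15 and chromosome 15 with 17. The start of chromosome 20 also held 17 and the start of chromosome 1 held 19. The other 29 ends lay between 23 and 40, and their intervals all spanned the mean.

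Both lists gave much the same order of ends. Peak counts per end in replicates 1 and 2 gave a Spearman rho of 0.890 over the 40 ends, a description over ends that share the genome and its alignable sequence. Replicate 1 had 1627 peaks in these windows and replicate 2 had 1432, a ratio of 1.14. Replicate 1 had more peaks at 30 ends, fewer at 7 and as many at 3. The ratio was lowest at the last end of chromosome 15, at 0.808 (21 and 26 peaks), and highest at the last end of chromosome 2, at 1.62 (47 and 29 peaks).

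A full start did not go with a full last end. The 20 starts held 589 regions, a mean of 29.4 ± 9.82 (SD, n = 20), and the 20 last ends held 622, a mean of 31.1 ± 9.64. The mean difference of start minus last was -1.65 regions (95% interval -7.94 to 4.64), with the start higher on 9 chromosomes and the last end higher on 11 (two-sided permutation test of 20 paired differences, p = 0.596). Across chromosomes the count at the start and at the last end had a rho of 0.0144 (n = 20). Chromosome 7 shows the gap, with 26 regions at its start and 50 at its last end. Chromosome 13 does so too, with 6 and 31. Starts and last ends were not measured alike, since the last position is set by a peak and the first is not. The outermost member lay a median of 51.6 kb from position 1 at the starts, and at 12 of 20 last ends the last peak was itself part of a member. In windows of 500 kb the starts held 3.70 regions fewer than the last ends (permutation test over 20 chromosomes, p = 0.0275). Counted from the lowest peak start instead of position 1, the 1 Mb windows differed by 0.25 regions the other way (permutation test over 20 chromosomes, p = 0.949).

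The comparison with the next 1 Mb asked whether the tips carry more or fewer regions than the arm beside them. Fewer regions lay in the outermost 1 Mb than in the next: 28 of the 40 ends had a lower count and 12 a higher one. The means were 30.3 and 35.7 regions, and the mean difference was -5.42 ± 11.4 (SD, n = 40 ends; 95% interval -9.09 to -1.76). A two-sided permutation test over the 40 paired ends gave p = 0.00487, and an adjusted p of 0.0195 over the 8 comparisons of these windows. Ends are places in 1 genome and not samples, so the test speaks of these places in these lists. The count was lower in the outermost window under all 15 alternatives, but the adjusted p stayed under 0.05 in only 5 of them and reached 0.816 with windows of 2 Mb.

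**Figure D2:**
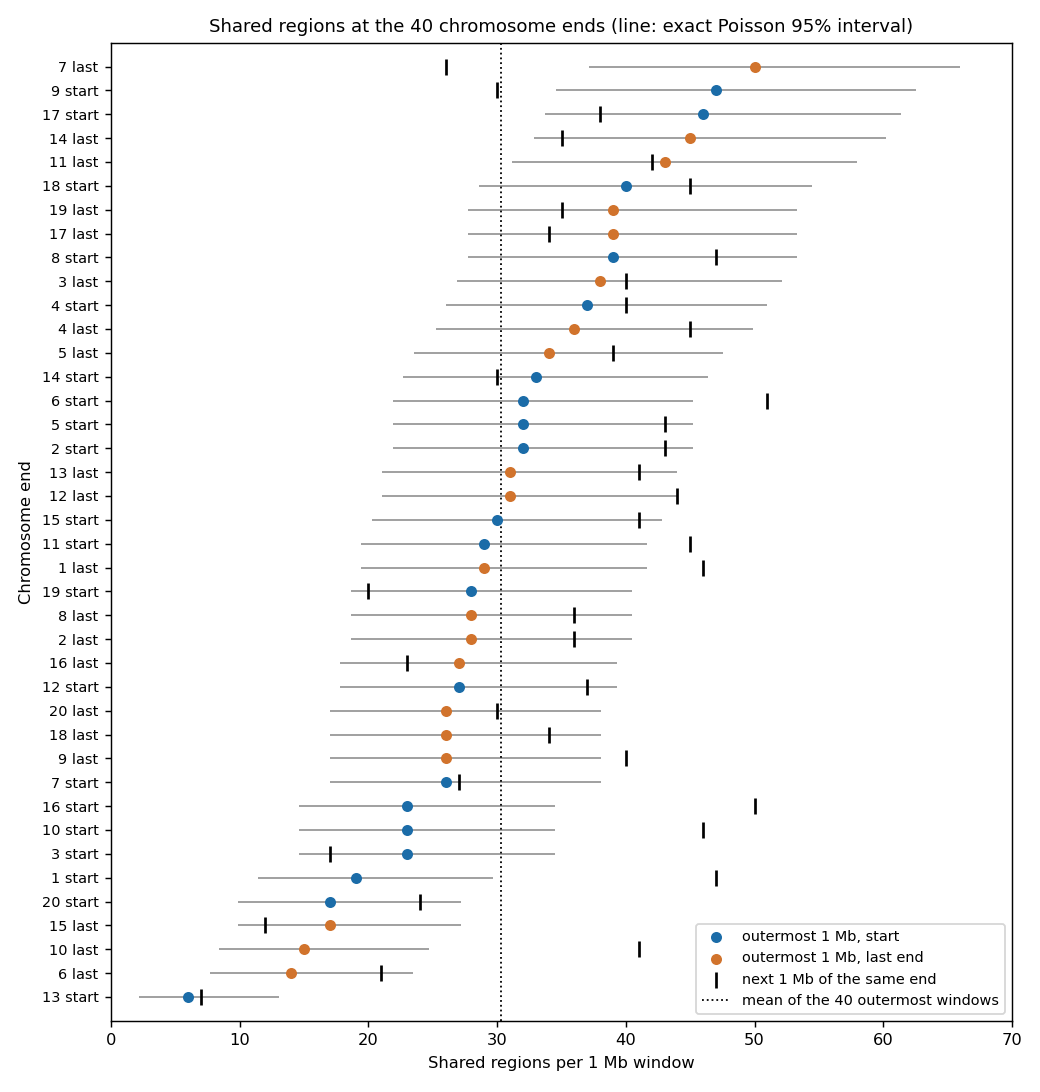
Number of shared regions in the outermost 1 Mb of each chromosome end (colored points, with exact Poisson 95% intervals as lines) and in the next 1 Mb of the same end (black ticks), ordered by count. Counts run from 6 to 50 around a mean of 30.3, and 28 of the 40 ticks lie to the right of their point.

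The difference between the windows was uneven among ends. Ranked within each direction, the 4 widest gaps with fewer regions outermost and the 2 widest with more are given here. The start of chromosome 1 held 19 regions against 47 inward, and the start of chromosome 16 held 23 against 50. Both ends of chromosome 10 were also low, with 23 against 46 at the start and 15 against 41 at the last end. The last end of chromosome 7 went the other way, with 50 against 26, as did the start of chromosome 9, with 47 against 30. The start of chromosome 13 was sparse in both windows, with 6 and 7 regions. The counts of the outermost and the next window had a rho of 0.219 across ends (n = 40), over windows that share a chromosome arm. Windows of the next 1 Mb varied as widely, from 7 to 51, with a variance 3.09 times their mean.

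Over all ends, the lowest counts were in the outermost 200 kb. The first 100 kb held 76 regions over the 40 ends and the second 89. The third held 111, close to the 110 at 500 to 600 kb, and each of the 17 later segments of 100 kb, up to 2 Mb, held between 110 and 173. The segments were joined at 300 kb after the profile was seen, so their densities are given without a test. Per 100 kb and end, the density was 2.30 in the outermost 300 kb (exact Poisson 95% interval 2.04 to 2.59). It was 3.34 from 300 kb to 1 Mb (3.13 to 3.56) and 3.57 in the next 1 Mb (3.39 to 3.76).

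The low counts were mostly at the starts, with 25 regions in the first 100 kb and 34 in the second. The last ends held 51 and 55 there, and 53 at both 800 to 900 kb and 1900 to 2000 kb. The starts held 1.88 regions per 100 kb in the first 300 kb (1.55 to 2.26), against 2.72 at the last ends (2.32 to 3.17). Between 300 kb and 1 Mb the starts held 3.40 and the last ends 3.28. Of the 40 ends, 8 had no shared region in the first 100 kb. The last ends begin at a peak and the starts at position 1, and the part of this in the outermost segments was not tested.

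**Figure D3:**
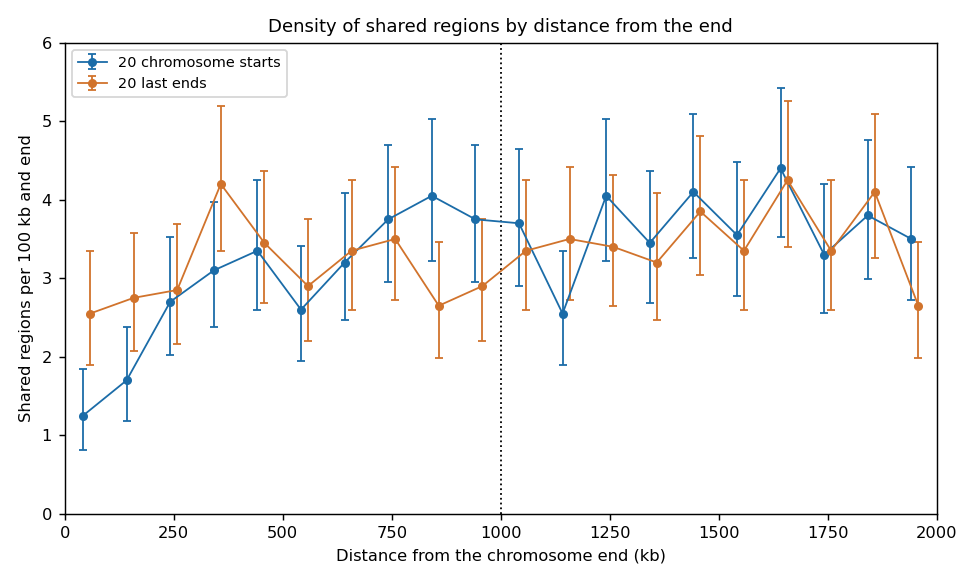
Shared regions per 100 kb and end against distance from the end in kb, for the 20 chromosome starts and the 20 last ends, with exact Poisson 95% intervals as bars; the dotted line marks 1 Mb. The starts rise from 1.25 in the first 100 kb to 3.10 at 300 to 400 kb, and the last ends from 2.55 to 4.20. At 900 to 1000 kb the starts are at 3.75 and the last ends back at 2.90.

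No difference in strength between the outermost and the next window was detected. Members had a median fold enrichment of 6.99 in replicate 1 (quartiles 5.24 and 10.8) and 7.27 in replicate 2 (quartiles 5.34 and 11.5). Regions of the next 1 Mb had medians of 6.93 and 7.05, and those further inward 6.93 and 7.25. Per end, the median log2 fold was 0.03 ± 0.21 higher in the outermost window in replicate 1 (SD, n = 40 ends; 95% interval -0.04 to 0.09; permutation test, adjusted p = 0.457). In replicate 2 the log2 fold was 0.08 ± 0.28 higher (95% interval -0.01 to 0.17; permutation test, adjusted p = 0.185). On the log2 scale the summit pileup differed by 0.06 ± 0.28 in replicate 1 (interval -0.03 to 0.15; permutation test, adjusted p = 0.283) and by 0.08 ± 0.28 in replicate 2 (interval -0.005 to 0.17; adjusted p = 0.169). The intervals in replicate 2 reach 0.17 on the log2 scale, so a difference of up to that size cannot be told from none.

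The share of strong members was near that of all chromosomal regions. A fold of at least 10 in both lists was found at 303 members, or 25.02% (exact binomial 95% interval 22.6% to 27.6%), where the share over all chromosomal regions was 24.3%. A fold of at least 20 in both lists was found at 83 members, or 6.85% (5.50% to 8.43%), against 7.14% over all. The members among the 100 highest-ranked regions numbered 7, with 5 more in the next 1 Mb. Of all chromosomal regions, 7.67% were members and 9.04% lay in the next 1 Mb, and the difference from these shares was not tested.

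Whether ends differ in the strength of their members was not tested. The per-end median fold ran from 5.71 to 9.004 in replicate 1 and from 6.14 to 10.2 in replicate 2, with a rho of 0.605 between the lists (n = 40 ends, over the same regions). The last end of chromosome 18 was highest in both lists, with medians of 9.004 and 10.2 over 26 regions. Of these regions 12, or 46.2%, had a fold of at least 10 in both lists, against 24.3% of all chromosomal regions. That end was named for its medians, so a high share there follows from the choice. The last end of chromosome 19 had medians of 7.79 and 9.71, and the start of chromosome 6 had 8.19 and 9.10. At the start of chromosome 20 the medians were 6.52 and 6.14, and at the last end of chromosome 12 they were 6.32 and 6.24. Of the 31 members at that end of chromosome 12, 5 had a local background over 5 times the genome-wide level in both lists. Their folds were only 1.46 to 1.80 and 1.61 to 1.93. The median pileups of all 31 were 45 and 39 fragments, against 40 and 31 over all members. How far these 5 lower the median folds was not tested. At the start of chromosome 1 the lists were apart, with 5.71 and 8.16 over 19 regions. Number and strength were not closely tied, with rho values of 0.262 and -0.155 between the count and the median fold of each list. No member with a fold of at least 20 in both lists was found at 4 ends: the start of chromosomes 7, 13 and 16 and the last end of chromosome 15. These ends held only 26, 6, 23 and 17 members, and 7.14% of all chromosomal regions reached that fold. Whether these ends fall below that share was not tested.

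**Figure D4:**
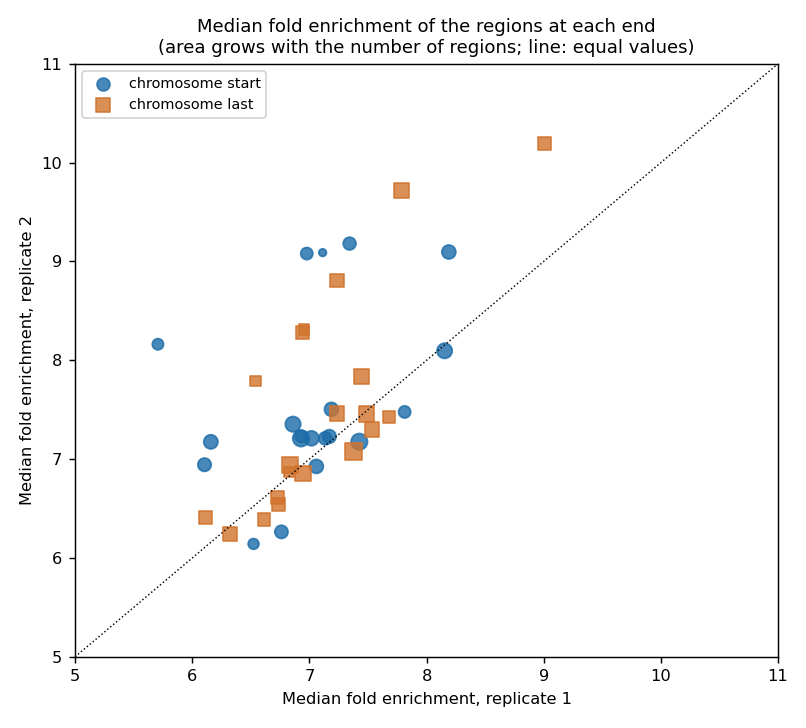
Median fold enrichment of the members at each of the 40 ends in replicate 1 (x axis) and replicate 2 (y axis), with symbol area growing with the number of members and the dotted line at equal values. Medians lie between 5.71 and 9.004 in replicate 1 and between 6.14 and 10.2 in replicate 2, with the last end of chromosome 18 at the upper right.

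The strongest members were picked by their mean rank of fold over both lists, so a high fold in both follows from the choice. On chromosome 11 a region from 34413697 to 34415199, 193 kb from the last end, had folds of 70.9 and 82.8 and summit pileups of 347 and 309 fragments. Its summits lay 2 bp apart, and only 1 of all chromosomal regions ranked above it. The same end held the next in rank, from 34377519 to 34378749, with folds of 59.2 and 66.1 and pileups of 302 and 275. Both lie on an arm tip that was also among the 5 most densely filled.

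Chromosome 13 held the third, from 45015719 to 45016752, with folds of 53.6 and 73.9 and pileups of 336 and 288. On chromosome 4, at 779 kb from the start, a region from 778186 to 779481 had folds of 56.3 and 57.2. On chromosome 18 a region from 303961 to 305076 had 50.8 and 55.8, and another from 969457 to 971073 had 53.1 and 40.8. In each of these the summits of the lists lay at most 38 bp apart. The last of them was the only one among the 10 whose fold was higher in replicate 1.

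The list of 10 was completed by regions at last ends. Chromosome 7 held one from 44248468 to 44249571, with folds of 44.7 and 54.1, at the end with the most regions. Chromosome 12 held one from 39474071 to 39474879 (folds of 42.0 and 56.6) and one from 39597196 to 39598333 (41.2 and 53.0). Chromosome 16 held one from 36926397 to 36927989, with folds of 44.9 and 47.7. All 10 were at least 193 kb from their end, and they were 809 to 1617 bp wide.

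At the end with the fewest regions, the start of chromosome 13, the 6 members were spread over the megabase. They lay between 158 and 901 kb from position 1. The folds ran from 5.17 to 16.8 in replicate 1 and from 4.88 to 26.5 in replicate 2. The region from 633913 to 634418 had folds of 16.8 and 26.5, and that from 900808 to 901285 had 16.8 and 14.5. The other 4 had folds under 10 in both lists. At the end with the most, the last end of chromosome 7, the 50 folds ran from 3.68 to 44.7 and from 3.13 to 54.1.

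Regions could lie close to the first base of a chromosome. The nearest was on chromosome 6 from 16324 to 17033, and it was a strong one, with folds of 30.9 and 64.4 and pileups of 266 and 240 fragments. Its local background was 7.64 fragments in replicate 1 and 2.74, the genome-wide level, in replicate 2. On chromosome 17 the first region lay from 16952 to 17541, with folds of 5.83 and 8.78. On chromosome 19 it lay from 20164 to 20542, with folds of 6.79 and 5.89. At the other extreme, the first region of chromosome 15 lay 221 kb from position 1.

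The median width of members was 455 bp, against 445 bp in the next 1 Mb and 453 bp further inward. Per end the median width was 7.15 ± 37.6 bp larger in the outermost window (SD, n = 40 ends; 95% interval -4.87 to 19.2; permutation test, adjusted p = 0.319). A width over 1000 bp was found at 40 members, or 3.30% (2.37% to 4.47%), where 2.41% of all chromosomal regions were so wide. The interval includes that share. The widest member was on chromosome 19, spanning 866255 to 868006; its width was 1752 bp and its folds were 38.1 and 40.02. The third widest, on chromosome 13 at 45448562 to 45450174, measured 1613 bp. Its folds were 9.24 and 10.5, and its replicate summits lay 875 bp apart. Summits lay at most 100 bp apart in 93.4% of members, against 92.7% of all chromosomal regions.

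Neighbouring summits within an outermost window lay a median of 20019.5 bp apart, against 15290.5 bp in the next 1 Mb and 22287.5 bp further inward. Neighbours within 2 kb made up 97 of 1171 pairs, or 8.28% (6.77% to 10.0%), against 147 of 1388, or 10.6% (9.02% to 12.3%), in the next 1 Mb. Further inward it was 1209 of 13113 pairs, or 9.22%, which lies inside the interval of the members. The 10.6% of the next 1 Mb lies outside that interval, though the intervals of these windows overlap. The difference was not tested. The closest pair of members had summits 510.5 bp apart. The longest stretch between neighbouring members was 278 kb, at the start of chromosome 10, and the last end of chromosome 14 had the shortest longest stretch, 83.8 kb.

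Replicate agreement differed between the windows for the replicate 2 list. Of the replicate 2 peaks in the outermost 1 Mb, 1222 of 1432 overlapped a replicate 1 peak, or 85.3% (exact binomial 95% interval 83.4% to 87.1%). In the next 1 Mb it was 1437 of 1610, or 89.3% (87.6% to 90.7%), and over all replicate 2 chromosomal peaks 87%. Per end the share was 4.12 ± 7.96 percentage points lower in the outermost window (SD, n = 40 ends; 95% interval -6.67 to -1.58), lower at 28 ends and higher at 12 (two-sided permutation test, adjusted p = 0.0163). This call depended on the settings. The adjusted p was 0.368 when summits had to lie within 100 bp, and the difference turned to 1.52 points higher with windows of 500 kb and 0.54 points higher with windows of 2 Mb.

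For replicate 1 no such difference was detected. The share was 74.7% (72.6% to 76.8%) in the outermost 1 Mb, 74.4% (72.4% to 76.3%) in the next and 75.3% over all replicate 1 chromosomal peaks. Per end it was 1.29 ± 10.5 points higher in the outermost window (95% interval -2.06 to 4.65; permutation test, adjusted p = 0.457). Whether the lists differ in this respect was not tested.

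**Figure D5:**
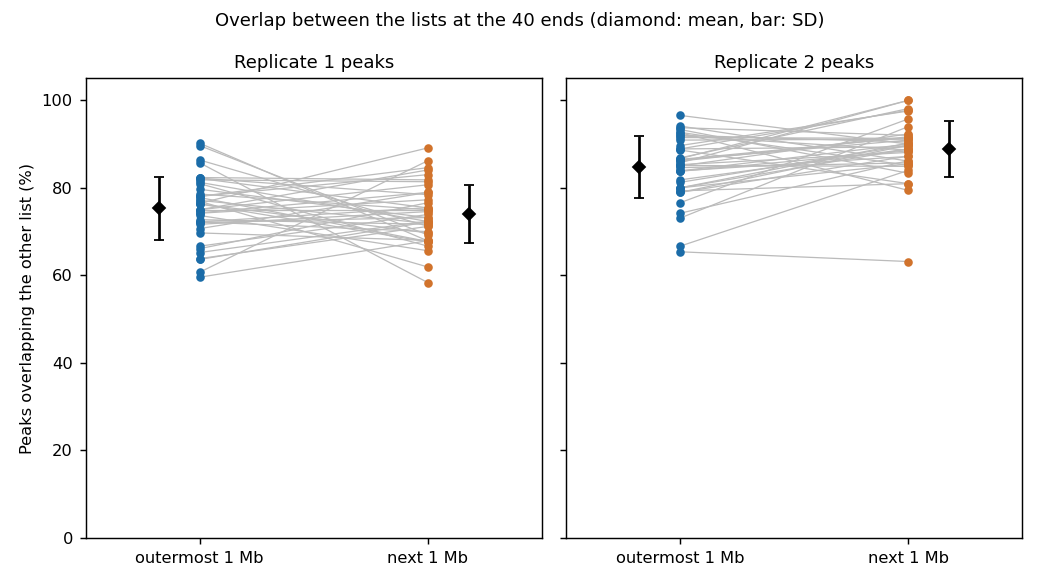
Percentage of peaks that overlap a peak of the other list at each of the 40 ends, in the outermost 1 Mb and in the next 1 Mb, with lines joining the same end and diamonds with bars for the mean and SD. For replicate 2 the mean is 84.8% in the outermost and 88.9% in the next window; for replicate 1 it is 75.3% and 74.0%.

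Peaks found in 1 list alone had low folds. The 411 unmatched replicate 1 peaks reached a summit pileup of 22 fragments at the median, for a fold of 4.28. The highest fold was 8.36, on chromosome 2 from 623948 to 624278. The 210 unmatched replicate 2 peaks had a median pileup of 19 and a median fold of 4.75. Their highest fold was 7.74, shared by a peak at 705168 to 705429 of chromosome 1 and one at 41711379 to 41711681 of chromosome 5. These peaks were picked after their values were seen. In the next 1 Mb the medians were 4.28 and 4.81. Among ends, the last end of chromosome 14 had the most unmatched replicate 2 peaks, 12 of 57, and the last end of chromosome 4 had 11 of 47. Their overlapping shares were 78.9% and 76.6%, against 87% over all replicate 2 chromosomal peaks. By share, the last end of chromosome 15 was lowest, with 65.4% overlapping and 9 of 26 peaks unmatched.

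A few members stood on a high local background. A local background over 5 times the genome-wide level in both lists was found at 9 members, or 0.743% (0.340% to 1.41%), against 0.196% of all chromosomal regions. In the next 1 Mb it was found at 0 of 1428 regions, which allows a share of up to 0.210% by the limit of 3 counts and 0.258% by the exact two-sided interval used for the members. Further inward it was found at 22. The 9 lay at 4 ends, and 5 of them were side by side on chromosome 12 from 39184619 to 39194453, so they are not independent places. Those 5 had pileups of 239 to 301 and 186 to 291 fragments over backgrounds of 139 to 206 and 98.5 to 167, and folds of only 1.46 to 1.80 and 1.61 to 1.93.

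The other 4 lay on chromosomes 8, 13 and 19. A pair on chromosome 8, from 47500053 to 47501423, had backgrounds of 42.9 to 77.6 and 33.7 to 54.6 fragments. At the start of chromosome 19 a region from 245797 to 246267 had folds of 1.74 and 2.16. On chromosome 13 the outermost member of the last end, from 45873399 to 45873632, had pileups of 80 and 65 fragments over backgrounds of 32.3 and 22.2. It also ends at the last peak position of that chromosome. Without peaks on a high background the outermost windows held 5.65 regions fewer than the next, with an adjusted permutation p of 0.0154.

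On the inner limit of 1 Mb, members and non-members lay side by side. Within 25 kb inside it lay 29 members, with median folds of 8.18 and 9.02. Within 25 kb outside it lay 35 regions, with median folds of 7.26 and 6.86. The difference between these small groups was not tested. Over the whole windows the median folds were 6.99 and 7.27 for members and 6.93 and 7.05 in the next 1 Mb.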

How the data were processed

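The submitters' processing notes name Bowtie 0.12.7, an aligner, and MACS2, a peak caller, without their roles or order. For MACS2 no version or settings, and for the genome no build, are given in the sources used here. Fold enrichment (a ratio), −log10 p, −log10 q and score are the values deposited by the authors in 1 list per ChIP replicate. The deposited score repeats −log10 q on another scale and was not used. Per the labels, both ChIP libraries of a replicate, taken here as lanes, belong to 1 list. Members and lists were chosen with earlier results of these data known.

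Summit pileup and local background were solved from the deposited fold and Poisson p, and the pileup was whole within 0.01 for 100% of peaks in both lists. Of several peaks of a list in a region, the one with the highest fold gave the values. Named members were the 10 with the highest mean percentile rank of fold, the 3 nearest a chromosome start, the 3 widest, those of the fullest and emptiest ends, and those with the highest background. Paired differences over ends were tested by exchanging signs at random 100000 times (two-sided permutation test; ends with at least 5 regions in both windows for medians and shares), with Benjamini-Hochberg adjustment over 8 tests at 0.05. Alternatives changed overlap, threshold, window, start position, lists and ends. Gene and motif results planned for a genome of the files' build were not run. Steps were tested on simulated data. Python 3.11.15, NumPy 2.4.6, SciPy 1.17.1 and pandas 2.3.3 were used.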

Additional observations from a re-analysis of the deposited data

How the results depend on the processing

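Of 119 alternatives run, 81 kept the direction and the side of the threshold or stayed within the spread of the lists. Adjusted p-values are from the permutation test over the tests available under each setting. The lower count in the outermost windows (-5.42) kept its direction throughout but missed 0.05 after adjustment with 50% reciprocal overlap (-4.95), summits within 100 bp (-4.33), −log10 q of at least 10 (-2.83), 500 kb windows (-2.38), 2 Mb windows (-1.02), starts from the lowest peak (-4.53), the third megabase as comparison (-4.08), starts alone (-6.95) and last ends alone (-3.90); with 1 replicate left out it was between -7.75 and -4.45, and the peaks of replicate 2 alone missed 0.05 (permutation test over 40 ends, adjusted p = 0.0792). The replicate 2 overlap difference (-4.12 points) missed 0.05 with 50% reciprocal overlap (-3.50), summits within 100 bp (-1.99), −log10 q of at least 10 (-1.47), starts from the lowest peak (-3.37), the third megabase (-2.97), starts alone (-4.53) and last ends alone (-3.71), and reversed with 500 kb (1.52) and 2 Mb windows (0.536). Fewer pairs were used for the starts or last ends alone; otherwise the cause was not tested.

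Differences that passed no threshold also changed sign. With 2 Mb windows the log2 fold differed by -0.024 and -0.0034 in replicates 1 and 2, the log2 pileup by -0.020 and -0.018, the width by -10.4 bp and the replicate 1 overlap by -1.68 points. With the third megabase the replicate 1 log2 fold differed by -0.0062, the width by -5.44 bp and the replicate 1 overlap by -1.02 points. With −log10 q of at least 10 the replicate 1 log2 fold differed by -0.00084 and the width by -7.58 bp. The replicate 1 overlap differed by -0.253 points with 500 kb windows and by -1.14 at last ends alone. Start minus last was -3.70 with 500 kb windows (past 0.05) and 0.25 from the lowest peak start. The ratio of variance to mean was 2.06 with −log10 q of at least 10, 2.01 with 500 kb and 4.18 with 2 Mb windows, and 3.03 to 4.13 with 1 replicate left out. Starts alone, last ends alone and leaving out high backgrounds were chosen after seeing the data. No paired analysis was possible because only ChIP lists were used, so ChIP and input could not be paired by replicate number; the pairs tested are windows or ends, not samples. Pileups of 13 fragments limit what the weakest members show.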
